A study of Mus musculus with 14 samples.

Results

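The immediate early and AP-1 genes described here are Fos, Fosb, Jun, Junb, Jund, Egr1, Ier2, Ier3, Atf3 and Dusp1, 10 of the 18193 genes on the array. They were taken by symbol, as every probe set that the platform's annotation gives to one of these genes alone. That gave 12 of 45101 probe sets: Jun and Jund have 2 each and the other genes 1, and the probe set that averaged highest across the 14 arrays leads for each gene. AP-1 is a dimer of a Fos and a Jun family protein that binds DNA through a basic leucine zipper. Its genes belong to the immediate early class, which is transcribed within minutes of a growth factor, antigen receptor or stress signal without new protein synthesis. In lymphoid progenitors such signals come from cytokine receptors and, later, from the pre-B receptor. Tissue dispersal and cell sorting are also known to induce the class.

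Transcripts were measured on Affymetrix 3' arrays in 6 groups of sorted C57Bl6 mouse bone marrow cells, with an age of 8 to 12 weeks given for all. Pax5KO engrafted cells (3 arrays) came from fetal liver of day 15 embryos that lacked Pax5, and WT engrafted cells (3 arrays) from wild type fetal liver. Donors of both kinds carried a λ5 reporter (λ5 is part of the surrogate light chain), both livers were put into sublethally irradiated mice, and B220+ reporter+ marrow cells were sorted 4 weeks later. The 4 groups from mice without a transplant (2 arrays each) were common lymphoid progenitors (CLP) without Ly6D (Ly6D- CLP) or with it (Ly6D+ CLP), ProB cells and PreB cells. The labels call the arrays biological replicates; they leave out the extent of the Pax5 deletion, whether animals were pooled, or how the cells without transplant were gated beyond their names. Transplant, fetal donor, reporter and sort therefore differ together between the engrafted and the other groups and cannot be told apart.

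Values are log2 signals as deposited. The lowest value of the table, 2.32, is a floor that many probe sets share, and a group is called at the floor here if none of its arrays exceeded it by more than 0.5. A difference from such a group is a lower bound. Pax5 read 7.57 to 7.95 on the Pax5KO arrays and 6.18 to 6.76 on the WT engrafted arrays. With the deleted part unknown, the signal may come from outside it and is no check of the genotype. In accord with the names, Ly6d read 10.30 to 11.25 in Ly6D+ CLP, against 3.02 to 3.61 in Ly6D- CLP. The summed B lineage markers (8 of 9 measured) reached 14.33 to 15.12 in every group other than Ly6D- CLP, where they reached 9.93 to 10.05. A sum follows its brightest members, and single members differed between groups with similar sums. Igll1 read 8.40 and 9.02 in PreB, against 12.93 and 13.47 in ProB, and Vpreb1 was also lower in PreB. Rag1 went the other way (12.01 and 12.08 against 8.70 and 9.28), as did Cd79b, Ebf1 and Blnk. Cd79a and Vpreb3 overlapped.

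Several features of the arrays moved with the groups. Granulocyte and monocyte markers (12 of 12 measured) summed to 13.46 and 14.14 in PreB, against 7.15 and 7.25 in ProB, and 2 of the 12 were at the floor in PreB against 6 of 12 in ProB. S100a8 alone read 12.02 and 12.85 in PreB, against 3.18 and 3.29 in ProB. NK markers (4 of 5 measured) summed to 10.66 and 11.24 in PreB, against 4.84 and 5.08 in ProB; of these, Ncr1 was at the floor in both. Plasma cell markers (4 of 4 measured) summed to 11.22 and 11.51 in PreB, against 13.15 and 13.37 in ProB. Of these, Igha read 3.36 and 8.12 in PreB, against 11.91 and 11.95 in ProB. Jchain read 2.59 and 8.64 in PreB, against 12.00 and 12.22 in ProB. Sdc1 went the other way (9.70 and 10.03 in PreB, 7.95 and 8.63 in ProB), and Xbp1 overlapped. The actin control probe sets differed by 6.71 and 7.27 between the 3' and 5' ends in PreB, against 2.51 to 5.57 on the other 12 arrays, a gap that grows as the labelled RNA gets shorter. The Gapdh control did not set PreB apart, at 4.35 and 4.88, against 2.40 to 5.79 on the other 12 arrays. Its largest differences were on Pax5KO array 3 (5.79) and WT engrafted array 3 (5.44). Xist was high (10.71 to 13.16) on the Pax5KO arrays, WT engrafted array 3 and both ProB arrays and low (at most 2.73) on the rest, so the sex of the cells differs throughout between ProB and both PreB and Ly6D+ CLP and cannot be told apart from stage there. In sorted bulk samples, fewer cells of a type and less RNA per cell cannot be told apart either.

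**Figure D1:**
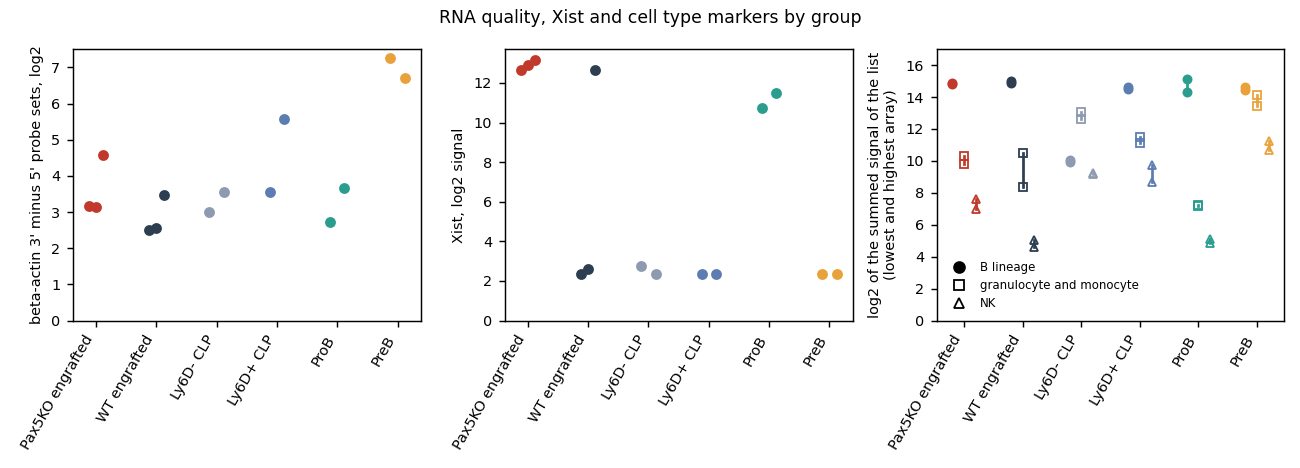
Left and middle: each point is an array, with the difference between the 3' and 5' beta-actin control probe sets and the Xist signal, both log2, by group. Right: lowest and highest array of each group for the log2 of the summed signal of 3 marker lists; PreB stands at 6.71 to 7.27 for actin and at 13.46 to 14.14 for granulocyte and monocyte markers.

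The promoters of Fos, Jun, Dusp1 and Atf3 are shown because these 4 genes carry the main contrasts below. By the leading probe set, the first 3 were lower on all engrafted arrays, and Atf3 was read well above the floor in PreB alone. Each is the RefSeq promoter window of GRCm38.p6, 250 bases before to 50 after the start of the gene, written 5′ to 3′ along the gene. Fos lies on the plus strand (chr12:85473640-85473939), and Jun (chr4:95052173-95052472), Dusp1 (chr17:26508423-26508722) and Atf3 (chr1:191183284-191183583) on the minus strand. Capitals mark matches to the motifs searched on both strands. These were the cyclic AMP response element TGACGTCA, the Jun promoter form TGACATCA, the AP-1 site TGANTCA, the Egr site GCGGGGGCG, the TATA box TATAAA and the CArG box (the core of the serum response element). The shorter form TGACGT was added after the sequences were read and lies within the first of them.
Fos: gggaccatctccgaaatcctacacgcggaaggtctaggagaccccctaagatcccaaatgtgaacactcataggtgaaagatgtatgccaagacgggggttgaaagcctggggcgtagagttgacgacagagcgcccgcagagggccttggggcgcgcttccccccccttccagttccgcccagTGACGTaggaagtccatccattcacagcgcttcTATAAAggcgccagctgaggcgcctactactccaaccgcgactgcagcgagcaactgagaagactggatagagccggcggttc
Jun: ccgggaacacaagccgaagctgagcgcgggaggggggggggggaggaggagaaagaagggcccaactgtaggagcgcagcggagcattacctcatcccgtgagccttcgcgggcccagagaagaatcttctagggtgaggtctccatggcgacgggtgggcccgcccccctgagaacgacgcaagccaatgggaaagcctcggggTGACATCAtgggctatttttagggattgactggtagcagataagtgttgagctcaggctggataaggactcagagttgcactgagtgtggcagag
Dusp1: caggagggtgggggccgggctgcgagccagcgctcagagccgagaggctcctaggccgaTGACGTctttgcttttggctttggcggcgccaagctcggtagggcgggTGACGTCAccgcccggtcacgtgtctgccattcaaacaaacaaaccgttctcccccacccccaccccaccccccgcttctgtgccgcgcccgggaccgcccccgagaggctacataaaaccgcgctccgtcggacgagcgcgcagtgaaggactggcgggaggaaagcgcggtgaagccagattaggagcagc
Atf3: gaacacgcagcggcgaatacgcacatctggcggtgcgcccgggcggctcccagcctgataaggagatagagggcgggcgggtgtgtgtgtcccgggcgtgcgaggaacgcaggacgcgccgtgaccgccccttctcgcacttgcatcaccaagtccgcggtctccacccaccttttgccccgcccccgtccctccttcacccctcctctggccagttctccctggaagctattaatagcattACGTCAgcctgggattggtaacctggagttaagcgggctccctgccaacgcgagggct

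The palindrome TGACGTCA, a cyclic AMP response element, was found in Dusp1, 143 bases upstream of the start. None of the other 7 member promoters searched held it, and 1.79% of 32851 promoter windows of this length do. Jun holds TGACATCA 45 bases upstream, a form through which AP-1 and ATF proteins are known to bind its promoter, and 3.62% of all windows have it. The shorter TGACGT was in Fos (66 bases upstream), Dusp1 and Atf3 and in 7.51% of all windows. Fos has TATAAA 33 bases upstream, as 13.6% of windows do. No CArG box and no TGANTCA was in the 8 member windows searched, against 1.63% and 7.81% of all. Egr1 was left out of the search by its chromosome and Ier2 was not listed, so neither promoter is covered. The letters outside the windows were not searched.

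All 10 genes varied over the 6 groups by limma's moderated F test, with adjusted p from 2.64e-06 (Atf3) to 0.0113 (Jun), beside 21.4% of all genes. The Jun call ended without PreB array 2 (adjusted p = 0.0665), and those of Fosb, Jun and Ier3 with the array number as a block (0.0676, 0.0693 and 0.0603). The members did not share a single pattern. Over the 14 arrays Dusp1 was most alike to Fosb (Pearson r = 0.91), Jun (r = 0.88) and Fos (r = 0.82), whereas Ier2 and Jund ran against each other (r = -0.68). These correlations describe the same arrays, groups and scaling, and carry no test.

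**Figure D2:**
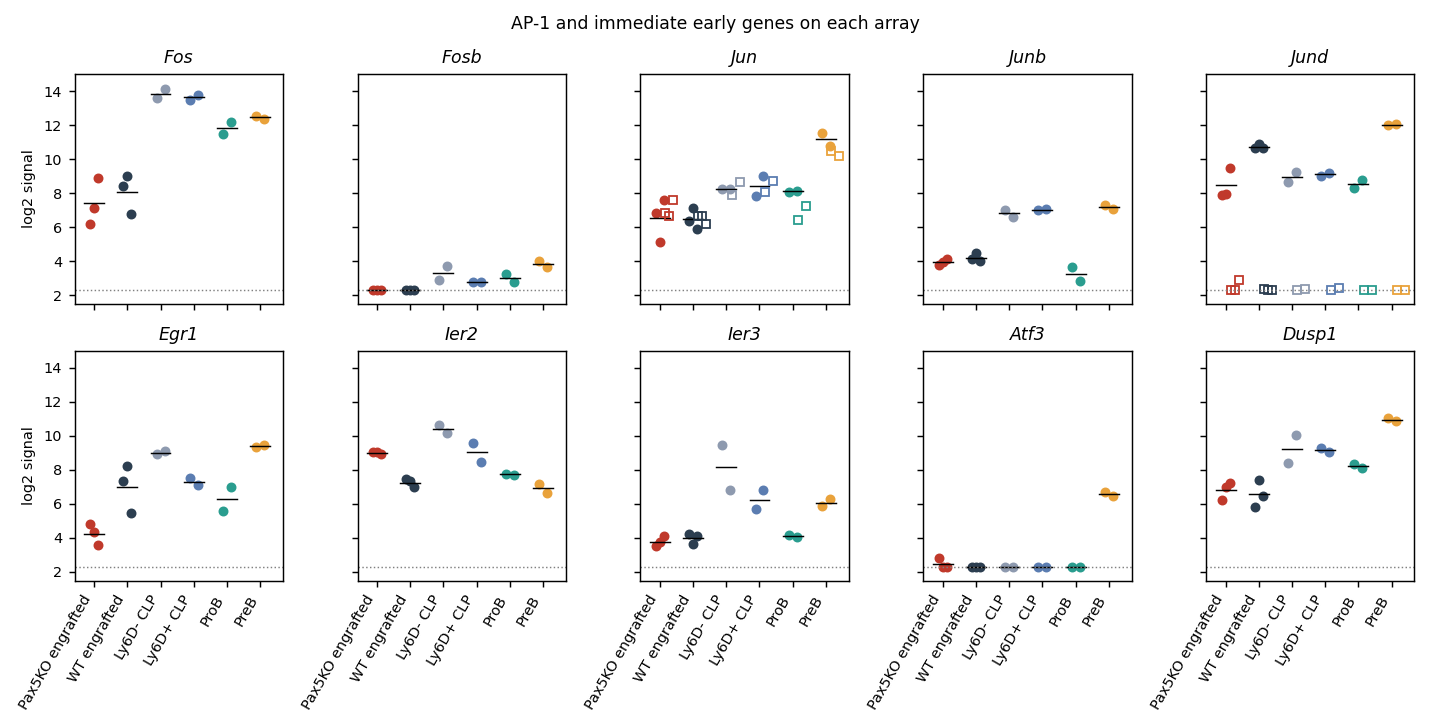
Log2 signal of the 10 genes on each of the 14 arrays by group. Filled points are the leading probe set with the group mean as a bar, open squares the second probe set of Jun and Jund, and the dotted line is the floor of 2.32. By the leading probe set, Fos, Jun and Dusp1 are lower on all 6 engrafted arrays than on the 8 others, and Atf3 stands high in PreB.

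Fos, whose protein pairs with Jun proteins and cannot form a stable dimer with itself, spanned the widest range of the group. It read 6.21, 7.15 and 8.91 in Pax5KO engrafted cells and 8.41, 9.01 and 6.80 in WT engrafted cells. Among the groups without a transplant, the values were 13.57 and 14.10 (Ly6D- CLP), 13.50 and 13.78 (Ly6D+ CLP), 11.48 and 12.17 (ProB) and 12.54 and 12.38 (PreB). Every engrafted array thus lay below every array without a transplant, with 2.47 log2 units between the nearest of them. WT engrafted cells differed from ProB by -3.75 (SE 0.81, limma adjusted p = 0.0373) and from PreB by -4.39 (SE 0.81, limma adjusted p = 0.0141). Pax5KO engrafted cells differed from ProB by -4.40 (SE 0.81, limma adjusted p = 0.0174). These comparisons share the ProB or WT engrafted arrays. The first call ended without ProB array 1 or 2 or WT engrafted array 1 or 3 (adjusted p from 0.0577 to 0.182), the second without PreB array 2 or 3 (0.0654 and 0.0591) and the last without Pax5KO array 2 or ProB array 2 (0.0586 and 0.10). With the array number as a block, which pairs the engrafted arrays and also links the others by number, the 3 adjusted p were 0.107, 0.0600 and 0.0721.

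Dusp1, a nuclear phosphatase that switches MAP kinases off, had the next largest separation. It read 6.23, 6.97 and 7.23 in Pax5KO and 5.83, 7.41 and 6.47 in WT engrafted cells. Among the groups without a transplant, the values were 8.38 and 10.06 (Ly6D- CLP), 9.29 and 9.07 (Ly6D+ CLP), 8.37 and 8.11 (ProB) and 11.04 and 10.86 (PreB). The engrafted arrays did not overlap the others, and PreB lay above all 12 other arrays. WT engrafted cells differed from ProB by -1.67 (SE 0.57, limma adjusted p = 0.164), which did not pass, and were lower than PreB, with a difference of -4.38 (SE 0.57, limma adjusted p = 0.00269).

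Jun, the main partner of Fos, read 6.84, 5.15 and 7.61 in Pax5KO and 6.38, 7.14 and 5.90 in WT engrafted cells. Among the groups without a transplant, the values were 8.24 and 8.26 (Ly6D- CLP), 7.81 and 9.0 (Ly6D+ CLP), 8.10 and 8.13 (ProB) and 11.55 and 10.76 (PreB). The nearest engrafted array was only 0.20 below the nearest of the others, so the separation was narrow. On the second Jun probe set the engrafted arrays (6.19 to 7.61) overlapped ProB (6.45 and 7.24). Its difference of Pax5KO engrafted from ProB cells was 0.19 against -1.58 on the leading one, and neither was called.

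Fosb, a Fos relative usually induced with it, was at the floor in both engrafted groups (2.32 to 2.33 on the 6 arrays). On the arrays without a transplant it was close to the floor as well, at 2.89 and 3.75 (Ly6D- CLP), 2.77 and 2.80 (Ly6D+ CLP), 3.24 and 2.79 (ProB) and 3.99 and 3.64 (PreB). WT engrafted cells were lower than PreB, with a difference of -1.49 that is a bound (SE 0.23, limma adjusted p = 0.00585).

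In all, 4 of the 10 genes (Fos, Fosb, Jun and Dusp1) were lower on all 6 engrafted arrays than on all 8 others, beside 15 of 18193 genes (0.0824%). These counts take each gene by its leading probe set. The second Jun probe set overlapped ProB, as given above. None of the 10 was higher on all engrafted arrays, beside 0.363% of all genes. Fosb was also at the floor in Ly6D+ CLP and on ProB array 2, where values have no order; among genes above the floor on all 8 arrays without a transplant the count was 3 members of 11 genes (0.0605% of all). This pairing of groups was chosen after the values were seen. The count stayed at 4 members (of 30 genes) without the PreB arrays and at 4 (of 31 genes) without both engrafted arrays numbered 3. Actin differences between the ends overlapped between the engrafted arrays (2.51 to 4.57) and the CLP and ProB arrays (2.73 to 5.57). Those of Gapdh were 2.61 to 5.79 on the engrafted arrays and 2.40 to 4.55 on the CLP and ProB arrays. Granulocyte markers of the engrafted arrays (8.35 to 10.50) lay between those of ProB (7.15 and 7.25) and those of the CLP (11.10 to 13.08). Their part in the count was not tested.

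By the adjusted test, WT engrafted cells against ProB gave Fos lower and Jund higher, 1 of 10 each, beside 1.3% of all genes lower, 3.63% higher and 4.93% called in either direction. Pax5KO engrafted cells against ProB gave Fos lower, 1 of 10, beside 1.02% of all genes lower and 4.22% higher. Without ProB array 1, 7.04% of all genes were lower in WT and 6.77% in Pax5KO engrafted cells than in ProB, so these shares of lower genes rest on that array. Against PreB, 6 of 10 were lower in WT engrafted cells (Fos, Fosb, Jun, Junb, Atf3 and Dusp1), beside 2.86% of all genes lower and 7.38% called in either direction. With only the arrays of these 2 groups in the fit, the calls of Fos, Jun and Dusp1 ended (adjusted p = 0.111, 0.0563 and 0.0668) and Jund was called lower (-1.28, 0.0359). The median difference of the 10 genes in the fit of all arrays was -2.67, with a median over all genes of 0. The granulocyte, NK and actin values of PreB given above move with this comparison; their part in it was not tested.

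Setting Pax5KO beside WT engrafted cells asks how these transcripts differ without Pax5. Jund was lower and Ier2 higher in Pax5KO cells, and the other 8 genes were not called; over all genes 2.29% were lower and 3.64% higher, 5.94% together. The median difference of the 10 was -0.10 and that of all genes 0. The 2 called genes thus moved in opposite ways. The sums of several marker lists moved with the genotype, though not all of their members did. Summed NK markers were 6.98 to 7.59 in Pax5KO and 4.59 to 5.04 in WT engrafted cells. Plasma cell markers summed to 12.34 to 13.04 in Pax5KO and 10.86 to 11.29 in WT. Of these, Jchain was higher in Pax5KO (11.78 to 12.54 against 2.93 to 6.41). Sdc1 went the other way (5.72 to 6.93 against 8.67 to 10.13), and Igha and Xbp1 overlapped. Lymphoid progenitor markers (5 of 5 measured) were 13.88 to 14.14 in Pax5KO and 12.04 to 13.07 in WT. Flt3 (8.74 to 9.98 against 3.39 to 3.66), Dntt and Kit were higher in Pax5KO. Ly6d went the other way (9.39 to 9.93 against 10.14 to 11.22), and Il7r overlapped. Granulocyte sums overlapped, at 9.83 to 10.32 in Pax5KO and 8.35 to 10.50 in WT, but single members did not. Lower in Pax5KO were S100a8 (4.59 to 6.25 against 7.27 to 8.25), S100a9, Ngp and Camp, the last at the floor there as was Ngp. Higher in Pax5KO were Ctsg (8.49 to 8.78 against 5.21 to 7.39), Lyz2 and Fcer1g. The other members of the list overlapped. Stromal markers were at the floor in Pax5KO, and Cxcl12 read 2.63 to 4.41 in WT. B lineage sums overlapped as well. Cd79a (5.36 to 5.48 against 8.13 to 8.84), Vpreb3 (7.05 to 7.77 against 10.62 to 10.95), Cd79b and Ebf1 were lower in Pax5KO. Vpreb1 went the other way (12.94 to 13.21 against 11.90 to 12.13), and Igll1, Blnk and Rag1 overlapped. The part of these markers was not tested.

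Jund, a Jun protein found in resting cells and not strongly induced by signals, read 7.90, 7.97 and 9.51 in Pax5KO and 10.64, 10.89 and 10.67 in WT engrafted cells. The groups did not overlap, and the third Pax5KO array lay closest to WT. The difference was -2.27 (SE 0.39, limma adjusted p = 0.0103). It kept its call without any single engrafted array, at -2.80 to -1.99 (adjusted p from 0.000176 to 0.0420). With a term for high Xist, which sets the Pax5KO mean against WT array 3 alone, it was -2.20 (adjusted p = 0.0966), and with the 6 engrafted arrays alone in the fit the adjusted p was 0.119. Among the groups without a transplant, the values were 8.66 and 9.23 (Ly6D- CLP), 9.03 and 9.18 (Ly6D+ CLP), 8.30 and 8.75 (ProB) and 11.98 and 12.05 (PreB). Pax5KO cells differed from ProB by -0.06 (SE 0.44, limma adjusted p = 1), while WT engrafted cells were higher than ProB by 2.21 (SE 0.44, limma adjusted p = 0.0269). That call ended without any one of the 5 arrays compared (adjusted p from 0.0521 to 0.0816), with quantile normalization (0.0699) and with averaged probe sets (1.11, 0.0652). The second Jund probe set was at or near the floor throughout (2.32 to 2.88).

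Ier2, a small nuclear protein of the immediate early class, read 9.03, 9.05 and 8.95 in Pax5KO and 7.48, 7.32 and 6.97 in WT engrafted cells. The groups did not overlap, and the difference was 1.76 (SE 0.28, limma adjusted p = 0.00739). Without both arrays numbered 3 it was 1.64 (adjusted p = 0.0632). Ier2 was highest in Ly6D- CLP (10.61 and 10.16), followed by Ly6D+ CLP (9.57 and 8.46), ProB (7.78 and 7.68) and PreB (7.20 and 6.63). The Pax5KO values lay between those of the 2 Ly6D+ CLP arrays, and the WT engrafted values overlapped those of PreB. Pax5KO cells differed from ProB by 1.28 (SE 0.32, limma adjusted p = 0.0576; 0.0368 with the array number as a block).

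Egr1, a zinc finger factor induced through MAP kinase and serum response factor, read 4.80, 4.36 and 3.61 in Pax5KO and 7.35, 8.23 and 5.46 in WT engrafted cells. No Pax5KO array reached a WT array. The difference of -2.76 (SE 0.67, limma adjusted p = 0.0511) did not pass; with the array number as a block, which pairs the engrafted arrays, the adjusted p was 0.0385, and without WT array 3, the lowest of its group, the difference was -3.54 (0.00649). Over all 17 alternatives the adjusted p lay between 0.00201 and 0.558, and 9 of them called Egr1 lower, among them those without dim genes (0.00668), with equal medians (0.0156) and with quantile normalization (0.0230); with the Xist term the difference was -1.21 (0.558). Among the groups without a transplant, the values were 8.91 and 9.11 (Ly6D- CLP), 7.52 and 7.09 (Ly6D+ CLP), 5.6 and 7.01 (ProB) and 9.32 and 9.44 (PreB).

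Fos differed between Pax5KO and WT engrafted cells by -0.65 (SE 0.73, limma adjusted p = 0.966), with overlapping arrays. The arrays numbered 3 were the highest of the Pax5KO and the lowest of the WT group. They also had the largest actin (4.57 and 3.47) and Gapdh (5.79 and 5.44) differences of their groups. Without both, Fos differed by -2.03 and was called lower (limma adjusted p = 0.0411). Jun (0.06), Junb (-0.27), Ier3 (-0.20) and Dusp1 (0.24) overlapped as well, and Fosb was at the floor in both groups. Atf3 was at the floor on all WT engrafted arrays and read 2.85, 2.32 and 2.32 in Pax5KO cells.

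**Figure D3:**
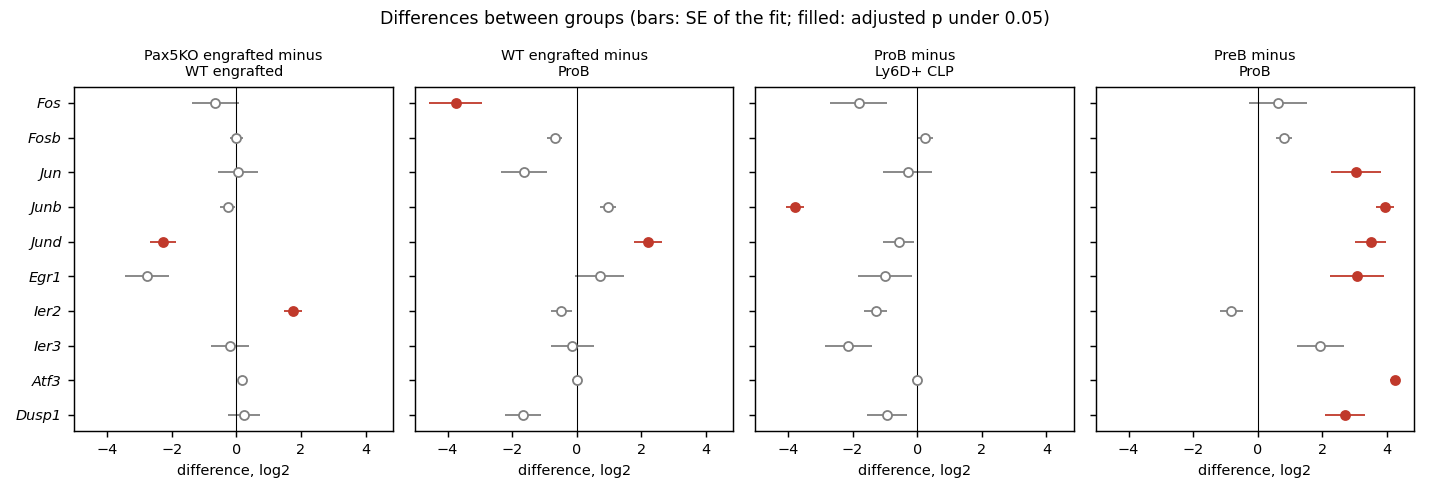
Log2 difference of the 10 genes in 4 comparisons, first group minus second, with bars for the SE of the fit; filled points passed an adjusted p of 0.05. Jund (-2.27) and Ier2 (1.76) passed between the engrafted groups, Junb passed from Ly6D+ CLP to ProB, and 6 genes were higher in PreB than in ProB.

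Along the stages without a transplant, no member was called between Ly6D+ and Ly6D- CLP by limma, beside 1.45% of all genes (0.638% lower and 0.813% higher); at an unadjusted p under 0.05 there were 2, Ier2 (-1.37) and Ier3 (-1.89), beside 9.94% of all genes. Ier3, a stress-induced regulator of survival, read 5.71 and 6.80 in Ly6D+ CLP and 9.46 and 6.82 in Ly6D- CLP, so the groups nearly touched. Elsewhere it was 3.50, 3.74 and 4.09 (Pax5KO), 4.21, 3.64 and 4.09 (WT engrafted), 4.16 and 4.08 (ProB) and 5.85 and 6.27 (PreB). S100a8 ranged from 2.39 to 10.6 over the 2 Ly6D- CLP arrays, against 3.27 to 4.94 in Ly6D+ CLP. The array with the lower Ier3 value was Ly6D- CLP array 2. Without it Ier3 was called lower in Ly6D+ CLP (-3.21, adjusted p = 0.00495), without Ly6D- CLP array 1 Fosb was called (-0.97, a bound since Ly6D+ CLP was at the floor, adjusted p = 0.0201), and without Ly6D+ CLP array 1 Ier2 was called (-1.92, adjusted p = 0.00616).

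From Ly6D+ CLP to ProB, Junb was lower, 1 of 10 beside 5.36% of all genes lower, 1.93% higher and 7.29% together. Junb, a Jun family protein with weaker activating and partly opposing effects to Jun, read 3.66 and 2.84 in ProB and 6.99 and 7.09 in Ly6D+ CLP. The difference of -3.79 (SE 0.28, limma adjusted p = 0.000181) was far larger than the spread within either group. Ier2 (-1.29, limma adjusted p = 0.0645) and Ier3 (-2.13, limma adjusted p = 0.142) did not pass, though their arrays did not overlap. Granulocyte markers summed to 7.15 and 7.25 in ProB, against 11.10 and 11.47 in Ly6D+ CLP, and NK markers to 4.84 and 5.08 in ProB, against 8.69 and 9.73 in Ly6D+ CLP. Plasma cell markers summed to 13.15 and 13.37 in ProB, against 10.36 and 10.89 in Ly6D+ CLP, where Jchain was at the floor (2.57). Sdc1 alone of the list went the other way, at 7.95 and 8.63 in ProB and 9.02 and 10.11 in Ly6D+ CLP. The part of these markers was not tested. Ier2 was called without Ly6D+ CLP array 2 (-1.84, adjusted p = 0.00738). In Pax5KO and WT engrafted cells Junb stayed near ProB, at 3.81 to 4.12 and 4.03 to 4.52, and neither differed from it by the test. Without ProB array 1, the higher of the 2, both were called higher than ProB, Pax5KO by 1.11 (adjusted p = 0.0209) and WT by 1.38 (adjusted p = 0.00734).

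From ProB to PreB, 6 of 10 genes rose (Jun, Junb, Jund, Egr1, Atf3 and Dusp1) and none fell, beside 6.35% and 5.19% of all genes. Their median difference was 2.88, with a median of 0 over all genes. Atf3, a stress-induced factor that dimerizes with Jun proteins, read 6.69 and 6.43 in PreB and 2.32 on both ProB arrays. It was at the floor on 11 of the 12 arrays outside PreB and read 2.85 on Pax5KO array 1, and its rise was at least 4.24 (SE 0.16, limma adjusted p = 1.43e-06). All arrays of ProB, WT engrafted cells and both CLP groups read the same floor value (SD 0). This lowers the pooled spread behind the SE and p of Atf3, and behind its F test. Junb read 7.31 and 7.08 in PreB, against 3.66 and 2.84 in ProB, and rose by 3.95 (SE 0.28, limma adjusted p = 7.71e-05). Jund rose by 3.49 (SE 0.48, limma adjusted p = 0.00244).

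Jun was higher in PreB by 3.05 (SE 0.76, limma adjusted p = 0.0357). Its second probe set gave 3.49 (limma adjusted p = 0.00166) when all probe sets were tested. Egr1 rose by 3.08 (SE 0.83, limma adjusted p = 0.0467) and Dusp1 by 2.71 (SE 0.62, limma adjusted p = 0.0245). The calls of Jun, Egr1 and Dusp1 ended when any one of the 4 PreB and ProB arrays was left out, at adjusted p from 0.0567 to 0.187, with changes from 2.38 to 3.78; those of Junb, Jund and Atf3 did not. With only these 4 arrays in the fit, the calls of Jun, Junb, Jund and Egr1 ended (adjusted p = 0.0954, 0.0816, 0.0515 and 0.175) and those of Atf3 and Dusp1 remained. Fos (0.63), Fosb (0.80), Ier3 (1.94) and Ier2 (-0.82) were not called. The PreB arrays exceeded all 12 others for Jun, Jund, Egr1, Atf3 and Dusp1, 5 of 10, beside 6.73% of all genes. Granulocyte, NK, plasma cell, single B lineage, actin and Xist values change at the same step, as given above, and their part in these rises was not tested.

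Other genes of the pathway were followed in 4 lists, with Maff in both the immediate early and the bZIP list. From ProB to PreB, 6.35% of all genes rose and 5.19% fell, and the counts of each list stand beside these shares. Of 40 other immediate early genes, 26 rose and 1 fell (median 3.40). Socs3, a cytokine feedback inhibitor, rose by 6.09, Egr3, a relative of Egr1, by 6.02, Rgs1, a regulator of G protein signals, by 5.57, Btg2, an antiproliferative factor, by 5.42 and Plk2, a stress kinase, by 5.38 (limma adjusted p from 9.4e-05 to 0.0428). Of 23 measured bZIP relatives (25 listed), 8 rose and none fell (median 1.97), among them Fosl2, a Fos family member, by at least 5.04, Ddit3, a stress factor, by 3.91, Maf by 3.85, Maff by at least 3.61 and Jdp2, a Jun dimerization partner, by 3.24. Of 17 MAP kinase phosphatases and feedback genes, 6 rose (median 1.59), led by Dusp5, a phosphatase of ERK, by 4.98 and Spry2, an inhibitor of receptor signals, by 4.19. Of 22 measured genes of the kinase route itself (29 listed), Rasgrp1, a Ras activator, Elk3, a serum response cofactor, and Prkcb, a protein kinase C, rose and none fell (median 0.37).

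Between Pax5KO and WT engrafted cells, where 2.29% of all genes were lower and 3.64% higher, 6 of the 40 immediate early genes fell and 3 rose (median -0.29). Klf2, a factor of resting lymphocytes, differed by -6.62, Btg2 by -3.02, Btg1 by -2.87 and Gadd45b, a stress sensor, by -2.71, all of them lower, while Myc, a growth factor response gene, rose by 2.92 (limma adjusted p from 2.73e-05 to 0.0071). Bach2, a B cell bZIP repressor, was the 1 bZIP relative of 23 called and fell by 3.42 (limma adjusted p = 0.00242), a share near the 5.94% of all genes. Of the 17 phosphatases and feedback genes, Dusp10, a phosphatase of stress kinases, fell by 3.65 and Spry1 rose by 2.18. On the kinase route, Rasgrp1 was lower, with a difference of -6.64 that is a bound (SE 0.46, limma adjusted p = 7.24e-05), at the floor in Pax5KO cells against a mean of 9.26 in WT cells, and Elk3 rose by 1.86 (SE 0.41, limma adjusted p = 0.0333).

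From Ly6D+ CLP to ProB, 8 of the 40 immediate early genes fell and 1 rose (median -0.44), beside 5.36% and 1.93% of all genes: Socs3 differed by -5.24, Rgs1 by -3.75, Myc by -3.47 and Btg2 by -2.86, all lower in ProB, and Sgk1, a serum and glucocorticoid induced kinase, rose by 4.16. Mafk (-1.77) was lower among the bZIP relatives, Dusp5 (-3.02) and Dusp2 (-2.57) among the phosphatases, and Elk3 (-3.72) on the kinase route. In WT engrafted cells against ProB, 6 of the 40 were higher and 1 lower (median 0.22), beside 3.63% and 1.3% of all genes, with Klf2 higher by 5.19, Btg2 by 4.70, Rgs2 by 3.42, Btg1 by 2.91 and Nfkbia, the inhibitor of NF-κB, by 2.89. Against PreB, 19 of the 40 were lower in WT engrafted cells and 1 higher (median -2.03), beside 2.86% and 4.52% of all genes; those lower included Rgs1 (-7.19, a bound), Socs3 (-5.42), Plk2 (-5.14), the orphan nuclear receptor Nr4a2 (-4.97) and the early activation marker Cd69 (-4.86). In Pax5KO engrafted cells against ProB, 4 of the 40 were higher (Myc, Klf10, Btg2 and Nfkbia, by 1.06 to 2.78) and none lower, beside 4.22% and 1.02% of all genes. Between Ly6D+ and Ly6D- CLP none of the 40 was called by limma, beside 1.45% of all genes; on the kinase route Prkcb was higher by 5.03 and Mrtfa, a serum response cofactor, lower (-2.37).

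**Figure D4:**
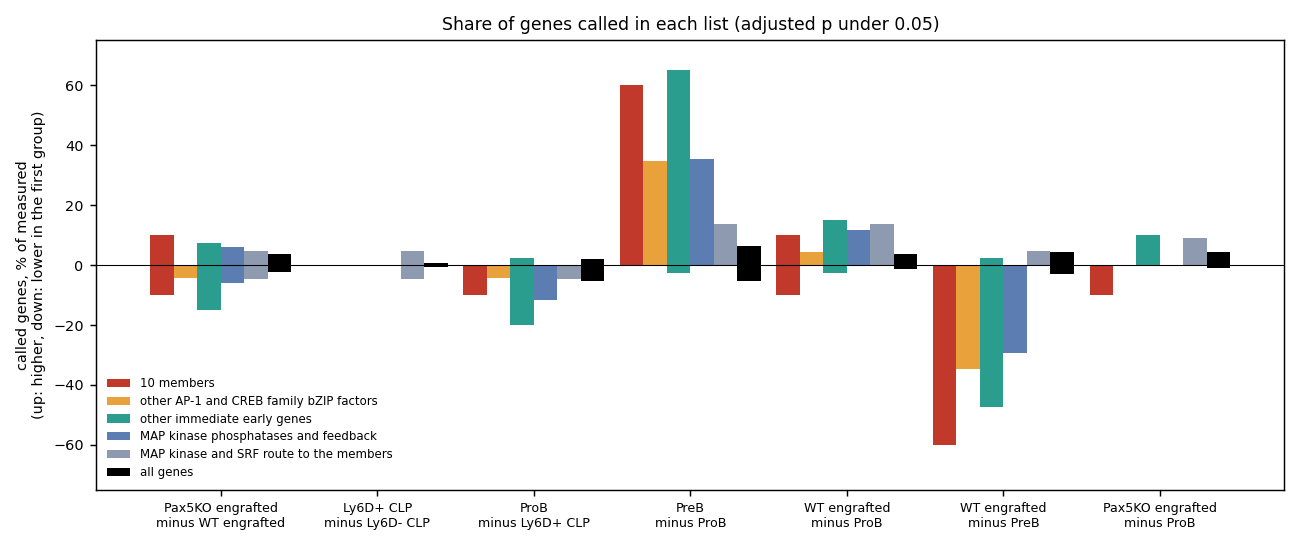
Share of measured genes called higher (upwards) or lower (downwards) in the first group of each of 7 comparisons, for the 10 genes, the 4 other lists and all genes. From ProB to PreB, 6 of 10 members and 26 of 40 other immediate early genes were higher, against 6.35% of all genes.

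Genes outside the 10 with the most similar profile were found by Pearson correlation over the 14 arrays. For Fos these were Tcf7l2 (r = 0.85), Bex1 (0.85), Rabgap1l (0.85), AA467197 (0.84) and Ctsw (0.82). Bex1 averaged 5.24 in Pax5KO and 5.33 in WT engrafted cells, and 9.37 (Ly6D- CLP), 9.41 (Ly6D+ CLP), 8.40 (ProB) and 6.44 (PreB) without a transplant. For Jund they were Nfkbia (r = 0.94), Sema4b (0.94), Nuak1 (0.94), Cd55 (0.94) and Gadd45b (0.94). Nuak1 averaged 2.39 in Pax5KO and 7.39 in WT engrafted cells, and 2.42 (Ly6D- CLP), 2.51 (Ly6D+ CLP), 2.51 (ProB) and 9.22 (PreB) without a transplant. Jund shared with these genes high values in WT engrafted and PreB cells and lower ones in the other 4 groups.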

How the data were processed

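Each array has a column of log2 signals, 1 per probe set, in the table the authors deposited. RMA, GCRMA and limma are named, without a role, per the submitters' processing notes; which of them made the values is not given in the sources used here. Values run from 2.32 to 16.1, and array medians lay between 2.41 and 2.52, so the values were taken as already scaled. Arrays give no read depth; their number limits the precision.

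Probe sets with 1 symbol (34945) were named from the platform's annotation and the RefSeq table of GRCm38.p6, which matched 34741. Each gene is its probe set with the highest mean (18193 genes). Limma 3.58.1 in R 4.3.3 (lmFit, eBayes) fitted all 14 arrays with a mean per group, which leaves 8 residual degrees of freedom. Two-sided p-values were adjusted over the 18193 genes (Benjamini-Hochberg) and called under 0.05. The fit was tested on simulated data. Alternatives changed filters, scaling, probe sets, arrays, weights and the replicate block.

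The numbers of the engrafted arrays were taken as pairs, though their titles give only a replicate number. Every same-numbered pair deviated together (r = 0.13, 0.30 and 0.54). However, Pax5KO array 1 was closer to WT array 2 (0.39) and Pax5KO array 2 also correlated with WT array 1 (0.19), so these values do not settle how arrays 1 and 2 pair. The numbers of the other groups entered the block too, though their same-numbered arrays hardly deviated together (r at most 0.08). PreB arrays are numbered 2 and 3 in their titles, used here, and 1 and 2 in their descriptions, used for the block. Named genes are the 10 members, up to 5 called genes with the largest difference per list and comparison, and the 5 genes most alike to Fos and to Jund. Members and lists were chosen with earlier results of these data known.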

Additional observations from a re-analysis of the deposited data

How the results depend on the processing

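Most values of single genes kept their direction and their side of the threshold: 1060 of the alternative values did, 57 lost a call, 39 gained one and 24 turned sign, none of these 24 a called value. The number of the 10 genes called moved by over 1.5 times as follows, and the cause was not tested except where fewer arrays or genes entered. For Pax5KO against WT engrafted cells (2 as reported) it was 1 with the 6 arrays alone and 1 with a term for high Xist. For ProB against Ly6D+ CLP (1) it was 3 without dim genes, 2 without genes at the floor and 0 with the 4 arrays alone. For PreB against ProB (6) it was 2 with the 4 arrays alone and 3 with array weights. For WT engrafted cells against ProB (2) it was 1 with quantile normalization, 1 with averaged probe sets, 0 with the arrays of both groups alone and 0 with array weights. For Pax5KO engrafted cells against ProB (1) it was 2 without dim genes, 2 without genes at the floor, 6 with equal array medians and 2 with array weights.

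With the replicate block the count was 2 for ProB against Ly6D+ CLP and 1 for WT engrafted cells against ProB, and the Jun call from ProB to PreB ended (3.05, limma adjusted p = 0.107); outside the engrafted groups the arrays share only a number. Leaving out 1 array at a time gave 2 to 3 genes for Pax5KO against WT engrafted cells, 0 to 1 for Ly6D+ against Ly6D- CLP, 1 to 2 for ProB against Ly6D+ CLP, 3 for PreB against ProB, 0 to 1 for WT engrafted cells against ProB, 5 to 6 against PreB, 0 to 2 for Pax5KO engrafted cells against ProB and 9 to 10 in the F test.

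Sign changes lay close to 0 in most cases. For Pax5KO against WT engrafted cells, Jun was -0.0345 with equal medians, -0.10 with quantile normalization, -0.55 with array weights, -0.77 without both arrays numbered 3 and -0.48 to 0.75 with 1 array left out. Fosb was -0.0877 with equal medians and -0.0022 with the Xist term, Fos 0.62 with that term, and Dusp1 -0.0208 without both arrays numbered 3 and -0.13 to 0.66 with 1 left out. Against ProB, Pax5KO cells had Jund at 0.0634 with averaged probe sets and at -0.59 to 0.21 with 1 array left out, and Atf3 at -0.21 with equal medians; WT engrafted cells had Ier3 at -0.26 to 0.0271. With 1 array left out, Ly6D+ against Ly6D- CLP gave Jund -0.12 to 0.44, Fos -0.46 to 0.0668, Dusp1 -0.88 to 0.79 and Jun -0.44 to 0.76, and ProB against Ly6D+ CLP gave Jun -0.89 to 0.30.

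Equal array medians shifted every value of an array by the same amount, floor values included. Genes at the floor thereby gained a difference between groups, and the median of all genes moved by -0.38 to 0.29. The share of called genes that were higher was 26.5% for ProB against Ly6D+ CLP, and 43.9% with equal medians and 44.2% with quantile normalization. It was 73.7% for WT engrafted cells against ProB (48.5% and 52.8%), 61.2% against PreB (47.9% and 51.2%) and 80.6% for Pax5KO cells against ProB (13.3% and 58.6%), where equal medians called 7491 genes and the deposited scale 953. Without ProB array 1 it was 62.8% for ProB against Ly6D+ CLP, 32.2% for PreB against ProB (55.0% as reported), 29.9% for WT and 34.6% for Pax5KO engrafted cells against ProB. Without PreB array 2 or 3 it was 33.8% and 37.1% for WT engrafted cells against PreB. For Ly6D+ against Ly6D- CLP it was 23.3% to 74.1% with 1 array left out (56.1% as reported). Groups of 2 or 3 arrays limit the precision throughout.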

Other observations

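The 15 genes that were lower on all 6 engrafted arrays than on the 8 others hold 11 besides Fos, Fosb, Jun and Dusp1. They are named here after their values were seen. Ppp1r15a, a stress-induced phosphatase subunit, read 3.74 to 4.11 on the engrafted arrays and 4.25 to 7.77 on the others. Anxa1, a phospholipid-binding protein, read 8.21 to 8.99 on the engrafted arrays and 9.49 to 10.58 on the others. Hoxa5, a homeobox factor, read 3.85 to 5.16 and Gfi1, a zinc finger repressor of blood progenitors, 6.32 to 7.89 on the engrafted arrays, against 5.28 to 7.64 and 7.93 to 9.82 on the others. The remaining 7 were AA467197, Ak4, Rabgap1l, Slc35d3, Frrs1, Sort1 and Golm2, of which AA467197, Ak4 and Slc35d3, like Fosb, were within 0.5 of the floor on at least 1 array without a transplant. Apart from Fos (2.47) and Dusp1 (0.70), the gap between the nearest arrays was at most 0.50, the value of Anxa1.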
